A study of Mus musculus with 47 samples.

Results

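The livers of male C57BL/6J mice fed a methionine-restricted diet (MR) were compared with those of mice fed the control diet (CON), across all measured genes. All liver libraries of the study were used: 6 MR and 6 CON, 12 of the 47 libraries in the series, each from 1 animal. The mice were 5 weeks old when the diets began, ate freely for 11 weeks at a housing temperature of 23 C, and were fasted for 5 h before the tissues were taken. Brown fat, inguinal fat and gastrocnemius muscle from these animals make up the other libraries and were used here only to ask whether a diet effect differed in liver. The labels used here do not state the amount of methionine in each diet, and both groups share sex, strain, housing and the fast. Libraries were made with SOLiD SAGE, which counts a short tag from near the 3′ end of each transcript. Animals are named by diet and by the number in the labels, for example MR3101.

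Methionine is an essential sulfur amino acid. The liver converts it through S-adenosylmethionine to homocysteine, which is either methylated back to methionine or passed through transsulfuration to cysteine, taurine and glutathione. Shortage of an amino acid is known to raise translation of the transcription factor ATF4, which acts on genes of amino acid synthesis and transport and on the hepatic hormone FGF21. NRF2 is the transcription factor of the antioxidant and conjugation genes. SREBP-1c and ChREBP drive hepatic fat synthesis.

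The 12 liver libraries held between 7710740 and 12130444 counted tags. Each library's median Spearman correlation with the other 11 lay between 0.962 and 0.972 and no pair of libraries was identical. The scaling factors (TMM, which adjust for RNA composition) ran from 0.863 to 1.023 in CON and from 1.001 to 1.125 in MR, and the 10 most abundant genes took 27.2% to 36.2% of tags in CON and 24.7% to 30.4% in MR. Levels are given in CPM, tag counts scaled to an equal effective library total, as the lowest, median and highest of the 6 animals. A gene with 0 tags could have been present at up to 0.248 to 0.346 CPM, depending on the library (3 counts, counting error only). Albumin (Alb), the hepatocyte's main secreted protein, had a median of 125000 CPM in CON and 115000 CPM in MR, so the samples matched their tissue label. These are bulk samples, in which fewer cells of a type and less RNA per cell cannot be told apart.

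Of 10969 genes tested, 115 were higher and 133 were lower in MR liver at a Benjamini-Hochberg adjusted p of 0.05, which is 2.26% in all, 1.05% higher and 1.21% lower. A further measure of the breadth is that 1594 of the 10969 genes had an unadjusted p under 0.05. These shares over all genes are the background for the counts of list members given below, both called and with an unadjusted p under 0.05. Differences are log2 fold changes, MR over CON, with the standard error (SE) of edgeR's quasi-likelihood fit. Among the calls, 45 increases and 60 decreases exceeded 2-fold, and in 177 of the 248 the 6 MR animals did not overlap the 6 CON animals. Separation was not counted over all genes. The calls were chosen by small p in these same animals, so their separation, here and gene by gene below, describes them and is not further support. With library totals alone in place of the scaling factors, a setting chosen after the data were seen, 548 genes were higher and 79 lower (87.4% of calls higher, against 46.4% with the factors). The median difference over all genes then moved from 0.01 to 0.19. A joint fit of all 4 tissues, which share 1 estimate of the spread, called 14 genes higher and 15 lower in liver, among them 28 of the 248. All differences given here are relative to the TMM scaling, and directions of small size depend on it.

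**Figure D1:**
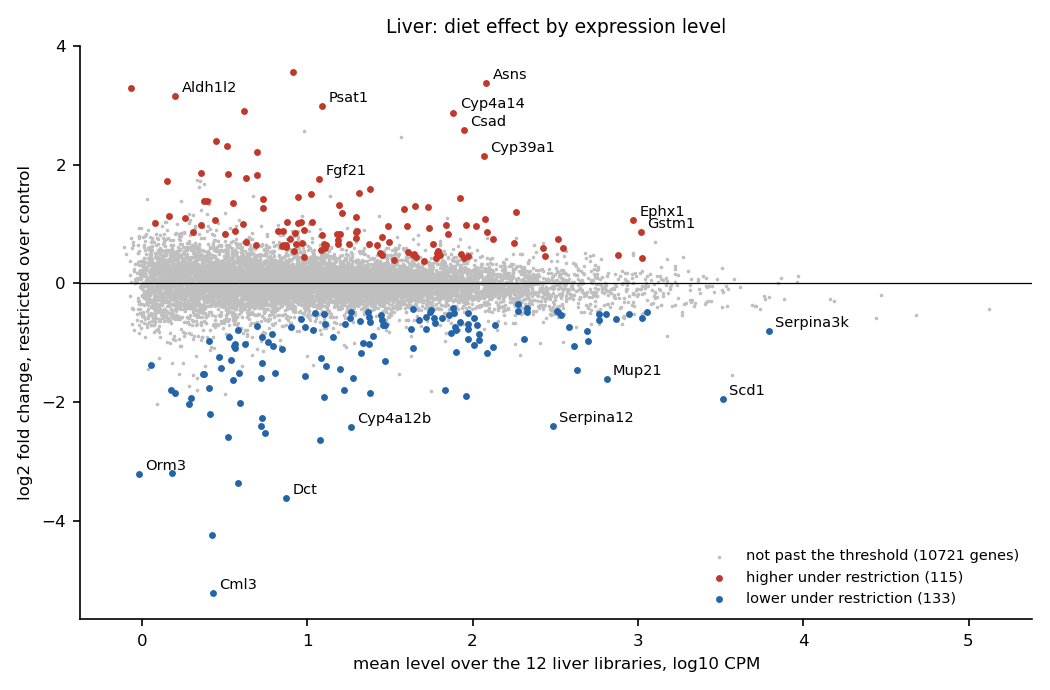
Diet effect in liver by expression level: each point is a gene, placed by its mean over 12 libraries (log10 CPM) and its log2 fold change, MR over CON. Red points are the 115 genes called higher, blue points the 133 called lower, and grey points the others; Asns and Cml3 lie at 3.37 and -5.22.

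Genes of the amino acid stress response rose, and 3 of them were among the 12 largest increases that the naming rule selected. Of 39 listed targets of ATF4 and the integrated stress response, 30 were measured well enough to test, 8 of these rose and 0 fell. DESeq2 called 10 higher, and library totals alone gave 14. Their median difference was 0.51 against 0.01 for all genes, and 28 of the 30 were above 0. This list, like the others, was written with earlier results of these data known. Asns, which makes asparagine, had 4.89, 16.6 and 40.8 CPM in CON and 173, 229 and 260 CPM in MR. The groups were far apart, and the level was 10.3-fold higher in MR (difference 3.37, SE 0.41, adjusted p = 0.000372). Psat1, an aminotransferase of serine synthesis, had 1.13, 2.15 and 6.09 CPM in CON and 13.1, 19.5 and 36.1 CPM in MR (difference 2.99, SE 0.37, adjusted p = 0.000407). Aldh1l2, a mitochondrial folate enzyme, had 0.103, 0.349 and 0.491 CPM in CON and 1.83, 2.82 and 4.06 CPM in MR (difference 3.15, SE 0.33, adjusted p = 9.54e-05). It was a rare transcript, with a mean of 3.17 tags a library in CON and 30.5 in MR. None of these 3 genes overlapped between the diets. Phgdh, the first enzyme of the serine pathway, was too rare in liver to test, with 0 tags in 5 of the 12 libraries and at most 0.497 CPM.

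The transporter and hormone targets followed. Slc7a5, a light chain of the large neutral amino acid transporter, had 1.54, 1.96 and 2.63 CPM in CON and 4.34, 4.9 and 6.81 CPM in MR, with no overlap (difference 1.36, SE 0.18, adjusted p = 0.000534). Vldlr, a lipoprotein receptor, had 0.752, 1.8 and 3.8 CPM in CON and 4.64, 6.44 and 9.88 CPM in MR (difference 1.77, SE 0.34, adjusted p = 0.0103). Fgf21, the hepatic hormone of nutrient stress, had 2.65, 3.67 and 12.9 CPM in CON and 10.4, 20.1 and 23.2 CPM in MR. That is 3.38-fold higher (difference 1.76, SE 0.35, adjusted p = 0.0132), and the groups touched through CON3107, the highest control. Gdf15, another stress hormone, had 4.62, 6.06 and 7.15 CPM in CON and 4.83, 12.5 and 15.4 CPM in MR (difference 1.01, SE 0.23, adjusted p = 0.0329). All MR animals except MR3101 exceeded every control. It was not called by limma voom. The Gdf15 call was lost in 10 of 12 fits that each left out 1 library (adjusted p from 0.0526 to 0.0841) and kept only without CON3115 or MR3101. Aldh18a1, an enzyme of proline synthesis, was the eighth call (difference 1.06, SE 0.25, adjusted p = 0.0356), lost in 11 of those 12 fits (0.0554 to 0.0824) and kept only without CON3107. Trib3, a pseudokinase of this pathway, had 15.9, 29.6 and 34 CPM in CON and 23.2, 36.5 and 61.9 CPM in MR and did not pass (difference 0.56, SE 0.25, adjusted p = 0.321). The transcript of Atf4 itself differed by 0.02 (adjusted p = 0.971).

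**Figure D2:**
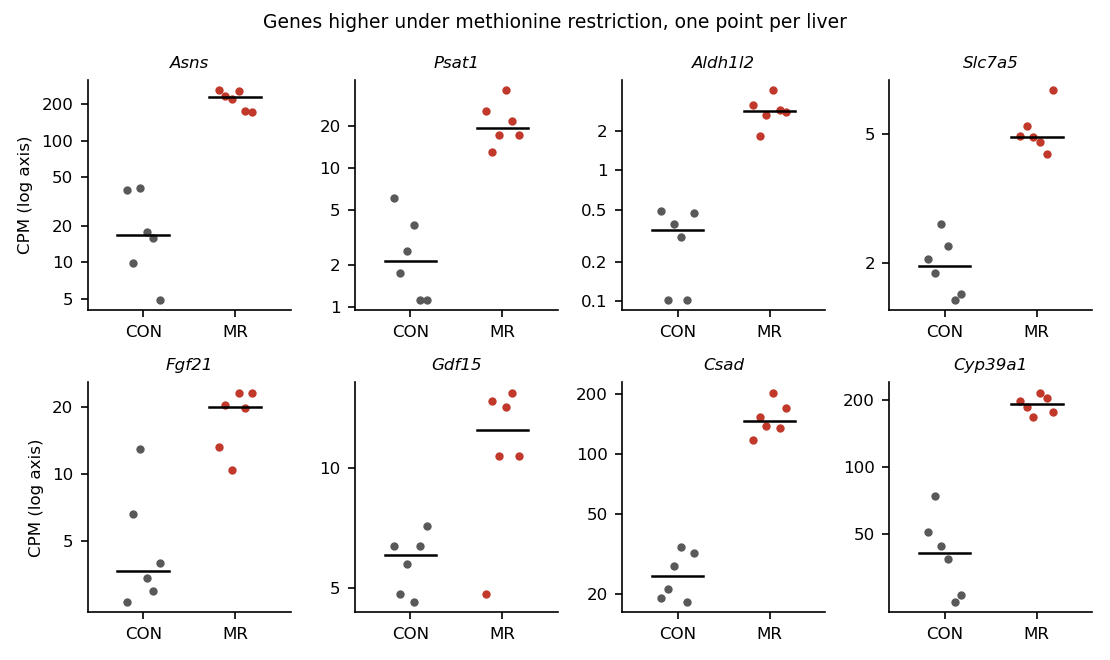
Levels of 8 genes called higher in MR liver, 1 point per animal and a bar at the group median, in CPM on log axes. The CON and MR points are apart in 6 panels, while in Fgf21 the highest control (12.9 CPM) and in Gdf15 the lowest restricted animal (4.83 CPM) fall within the other group.

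The RefSeq promoter table (GRCm38.p6) covers 250 bases before to 50 bases after each listed start, and was searched on both strands for the core of the amino acid response element, TGATGNAA. Of the 8 called members, 6 had an entry and 3 of these held the motif. Of all 24 tested members of the list with an entry, called or not, 7 held it (29.2%). Over all 32851 promoters 3.97% held it, and 2.75% of the 7677 tested genes with an entry did. The 3 are shown because they are the called stress response genes whose start regions carry these letters. Only the 250 bases before the start are printed, 5′ to 3′ on the gene's strand, with the match in capitals. The Asns stretch lies at chr6:7693210-7693459 on the minus strand, with the match starting 23 bases before the transcription start. The Fgf21 stretch lies at chr7:45615491-45615740 on the minus strand, with its match, on the opposite strand, starting 139 bases before. The Vldlr stretch, from 1 of 2 listed starts, lies at chr19:27216770-27217019 on the plus strand, with its match, also on the opposite strand, starting 200 bases before.
Asns: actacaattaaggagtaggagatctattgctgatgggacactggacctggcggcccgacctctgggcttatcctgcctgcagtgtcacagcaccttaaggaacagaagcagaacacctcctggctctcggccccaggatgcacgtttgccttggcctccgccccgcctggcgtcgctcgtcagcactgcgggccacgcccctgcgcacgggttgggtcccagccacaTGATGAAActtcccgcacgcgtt
Fgf21: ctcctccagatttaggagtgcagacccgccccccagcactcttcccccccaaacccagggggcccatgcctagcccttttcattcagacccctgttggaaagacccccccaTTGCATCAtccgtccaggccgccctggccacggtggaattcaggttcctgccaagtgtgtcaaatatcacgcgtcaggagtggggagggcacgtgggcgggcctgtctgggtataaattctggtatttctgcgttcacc
Vldlr: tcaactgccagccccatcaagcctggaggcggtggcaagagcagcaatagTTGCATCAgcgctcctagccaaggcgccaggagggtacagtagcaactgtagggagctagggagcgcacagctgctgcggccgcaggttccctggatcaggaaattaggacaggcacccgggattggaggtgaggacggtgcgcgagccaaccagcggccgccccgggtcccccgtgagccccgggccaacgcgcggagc
A match describes the letters and is not evidence of binding. Psat1, Gdf15 and Aldh18a1 held no match in this window, and Aldh1l2 and Slc7a5 had no entry. The cAMP response element TGACGTCA was found in 1.79% of all promoters.

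Genes of tRNA charging, amino acid transport and protein folding were listed separately. Of the 20 cytosolic aminoacyl-tRNA synthetases, which charge tRNAs, 0 passed with edgeR and 6 had an unadjusted p under 0.05. DESeq2 called 2 higher, and edgeR with library totals alone called 4 higher. The smallest p belonged to Rars, for arginine (10.2, 14.2 and 17 CPM in CON, 16.4, 19.8 and 25.2 CPM in MR, difference 0.57, SE 0.15, adjusted p = 0.0591), and Yars, for tyrosine (difference 0.49, SE 0.13, adjusted p = 0.0685). Rars also passed in edgeR fits without CON3115 (0.04) or MR3102. Among 22 tested amino acid transporters, 2 rose (Slc7a5 and Slc6a6) and 1 fell, and with library totals alone 5 rose and 1 fell. The one that fell was Slc43a1, a transporter of branched-chain amino acids, at 4.23, 5.46 and 7.8 CPM in CON and 1.22, 2.09 and 2.75 CPM in MR (difference -1.51, SE 0.23, adjusted p = 0.00174), with no overlap. Of 24 tested endoplasmic reticulum chaperone and unfolded protein response genes, 1 rose (4.17% called against 2.26% of all genes, and 2 higher with library totals alone). It was Dnajb9, a cochaperone, at 44.4, 50.2 and 60.6 CPM in CON and 61.9, 71.3 and 73.5 CPM in MR (difference 0.43, SE 0.10, adjusted p = 0.0374). Its call was lost in 9 of 12 fits without 1 library (0.0555 to 0.0959) and kept without CON3106, CON3114 or MR3102. Cytosolic ribosomal proteins gave 0 calls among 36 tested of 66 listed, with 2 at an unadjusted p under 0.05, 0 by DESeq2 and 2 higher with library totals alone. Many of their tags match several genomic copies, so their counts are uncertain.

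In the sulfur amino acid pathways the outstanding change was in taurine synthesis. Csad, cysteine sulfinic acid decarboxylase, which makes hypotaurine, had 18.3, 24.5 and 34.3 CPM in CON and 117, 145 and 202 CPM in MR. It rose 5.97-fold with a wide gap between the groups (difference 2.58, SE 0.18, adjusted p = 4.53e-06), the smallest p of all genes tested. The taurine transporter Slc6a6 had 44.8, 53.5 and 64.5 CPM in CON and 61.3, 75.7 and 85.2 CPM in MR (difference 0.48, SE 0.12, adjusted p = 0.0459). The groups touched, and the call was lost in 10 of 12 fits without 1 library (0.061 to 0.121), being kept without CON3106 or MR3104. It was also lost with RLE factors, upper-quartile factors or no filter. These were the only 2 calls among the 17 tested of 21 listed genes of transsulfuration, cysteine, taurine and glutathione synthesis, where 0 fell and the median difference was 0.18. With library totals alone 4 rose. The transsulfuration enzymes did not pass. Cbs, which joins homocysteine to serine, had 158, 181 and 217 CPM in CON and 189, 204 and 247 CPM in MR (difference 0.18, SE 0.11, adjusted p = 0.469). Cth, which releases cysteine, had 327, 369 and 515 CPM in CON and 345, 462 and 571 CPM in MR (difference 0.22, SE 0.15, adjusted p = 0.539).

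The methionine cycle list had 1 call among 20 tested genes (5% called against 2.26% of all genes). Dmgdh, which oxidizes the dimethylglycine formed when betaine gives up a methyl group, had 387, 509 and 824 CPM in CON and 194, 249 and 370 CPM in MR. It fell without overlap (difference -1.05, SE 0.20, adjusted p = 0.0108). Bhmt, the betaine-homocysteine methyltransferase that comes before it, had 3750, 5160 and 8210 CPM in CON and 537, 1340 and 5170 CPM in MR (difference -1.54, SE 0.41, adjusted p = 0.066). In 5 of the 6 MR livers Bhmt lay below every control, at 1820 CPM or less, and MR3101 held 5170 CPM. Without MR3101 the difference was -2.16 (adjusted p = 0.000781), and limma voom called Bhmt with all libraries (0.0189). Mat1a, the hepatic S-adenosylmethionine synthetase, had 70.7, 111 and 139 CPM in CON and 118, 141 and 184 CPM in MR and did not pass (difference 0.41, SE 0.15, adjusted p = 0.189). Gnmt, which disposes of surplus S-adenosylmethionine, had 1880, 1940 and 2840 CPM in CON and 991, 1520 and 2210 CPM in MR and did not pass either (difference -0.49, SE 0.17, adjusted p = 0.19). Among 20 tested methyltransferase and polyamine genes, 2 fell and 0 rose. Tpmt, thiopurine methyltransferase, had 16.6, 21.8 and 22.3 CPM in CON and 10.9, 12.9 and 14.9 CPM in MR (difference -0.69, SE 0.11, adjusted p = 0.00411). Hnmt, which methylates histamine, differed by -0.62 (SE 0.15, adjusted p = 0.046), a call lost in 11 of 12 fits without 1 library (0.0512 to 0.0911) and kept only without CON3106.

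NRF2 drives antioxidant and conjugation genes. Of 37 listed targets, 30 were tested, 9 rose and 1 fell, with a median difference of 0.31. With library totals alone 14 rose and 0 fell. Aox1, aldehyde oxidase, had 59.6, 71.8 and 80.2 CPM in CON and 118, 139 and 161 CPM in MR (difference 0.97, SE 0.11, adjusted p = 0.00019). Cbr1, carbonyl reductase, had 16.2, 22.3 and 29.5 CPM in CON and 43, 55.4 and 65 CPM in MR (difference 1.25, SE 0.16, adjusted p = 0.000407). Neither gene overlapped between the diets. Ephx1, microsomal epoxide hydrolase, had 507, 601 and 701 CPM in CON and 860, 1260 and 1570 CPM in MR (difference 1.06, SE 0.15, adjusted p = 0.000829). Ugdh, which makes the donor for glucuronidation, had 33.4, 38.5 and 41.6 CPM in CON and 57, 68.6 and 100.0 CPM in MR (difference 0.93, SE 0.14, adjusted p = 0.00156). Both were again apart in all animals. Gstm1 and Gsta4, described with their family, also rose, as did Osgin1 (difference 1.21, SE 0.18, adjusted p = 0.00191). The thioredoxin and glutathione reductases moved less: Txnrd1 by 0.46 (SE 0.10, adjusted p = 0.0316) and Gsr by 0.42 (SE 0.10, adjusted p = 0.0329). The Txnrd1 call was kept without CON3107, CON3112, CON3115, MR3102 or MR3104 and lost in the other 7 fits (0.0618 to 0.0828). The Gsr call was kept without CON3103, CON3112, CON3115 or MR3102 and lost in the other 8 (0.0532 to 0.093). Nqo1, a classic NRF2 target, was below the level needed for testing (0.196, 0.554 and 1.03 CPM in CON, 0.916, 1.69 and 1.88 CPM in MR). Hmox1, heme oxygenase, differed by 0.07 (adjusted p = 0.928).

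Among 18 tested glutathione S-transferases, enzymes that attach glutathione to electrophiles, 4 rose and 1 fell, and with library totals alone 6 rose and 0 fell. Gsto1, of the omega class, had 46.8, 62.4 and 72.1 CPM in CON and 117, 120 and 132 CPM in MR (difference 0.98, SE 0.11, adjusted p = 0.000172). Gstm1, an abundant mu class enzyme, had 650, 740 and 813 CPM in CON and 1070, 1370 and 1530 CPM in MR (difference 0.86, SE 0.10, adjusted p = 0.000378). Gsta4, of the alpha class, had 33.4, 47.2 and 56.9 CPM in CON and 62.6, 93.2 and 125 CPM in MR (difference 0.99, SE 0.18, adjusted p = 0.00795). All MR animals exceeded all controls for these 3 genes. Mgst3, a microsomal member, differed by 1.5 (SE 0.37, adjusted p = 0.0446), a call lost in 9 of 12 fits without 1 library (0.0606 to 0.105) and kept without CON3103, CON3115 or MR3102. It was also lost with robust dispersion and with limma on the authors' normalized values plus 1. Gstm6 went the other way, with 44.2, 50.2 and 56.6 CPM in CON and 31.4, 37.7 and 45.5 CPM in MR (difference -0.44, SE 0.10, adjusted p = 0.0397). Its call was kept without CON3106, CON3115 or MR3101, lost in the other 9 fits (0.0618 to 0.0887), and lost with library totals alone. Gsta1 had 0 tags in all 12 libraries. Within the mu class and within the alpha class the genes are close copies, so tags could have been lost or shared within each class.

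The antioxidant response element, TGACNNNGC on either strand, was found in 12.4% of all promoters and in 17.2% of tested genes with an entry. Of the 8 called NRF2 list members with an entry, 2 held it. Their stretches are shown so that the letters can be set beside those of the amino acid stress genes. The Ugdh stretch, at chr5:65435843-65436092 on the minus strand, has 2 matches, starting 132 and 94 bases before the transcription start, the latter on the opposite strand. The Txnrd1 stretch, from 1 of 3 listed starts, lies at chr10:82858956-82859205 on the plus strand, with a match on the opposite strand starting 92 bases before.
Ugdh: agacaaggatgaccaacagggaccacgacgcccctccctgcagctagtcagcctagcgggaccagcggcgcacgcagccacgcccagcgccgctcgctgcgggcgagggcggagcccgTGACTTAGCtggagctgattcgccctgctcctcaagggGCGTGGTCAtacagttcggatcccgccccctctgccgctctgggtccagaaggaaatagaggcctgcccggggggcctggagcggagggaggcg
Txnrd1: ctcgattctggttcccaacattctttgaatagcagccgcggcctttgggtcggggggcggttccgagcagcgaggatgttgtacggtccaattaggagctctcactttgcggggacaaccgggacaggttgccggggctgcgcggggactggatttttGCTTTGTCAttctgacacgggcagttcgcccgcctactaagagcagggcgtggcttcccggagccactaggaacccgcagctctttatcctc
The sterol response element TCACNCCAC was found in 1.24% of all promoters and in 0 of the 16 tested cholesterol genes with an entry.

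**Figure D3:**
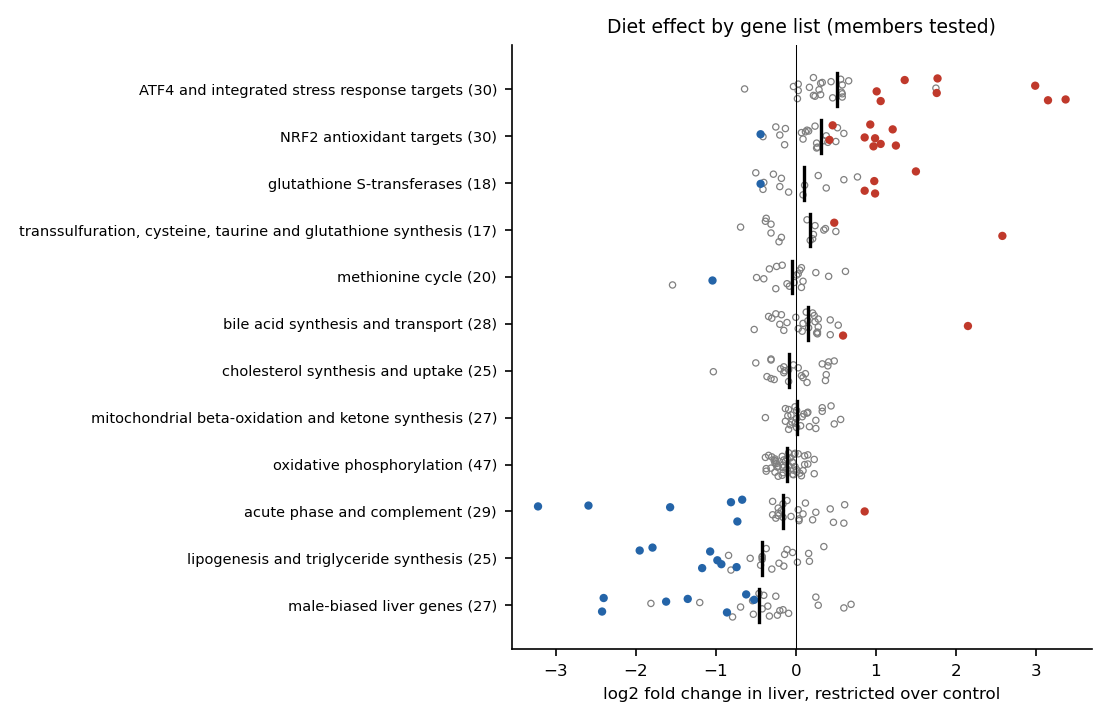
Log2 fold changes, MR over CON, of the tested members of 12 gene lists, with the number tested in brackets. Filled points passed the threshold (red higher, blue lower), open points did not, and bars mark the medians, which run from 0.51 for the stress response list to -0.46 for the male-biased list; with library totals alone the medians for the methionine cycle, cholesterol, oxidative phosphorylation and acute phase lists turn above 0.

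Other drug-metabolizing families were mixed. Of 32 tested cytochromes P450 of families 2 and 3, 2 rose and 4 fell, and with library totals alone 4 rose and 2 fell. Cyp2c38 rose from 9.66, 11.1 and 17.8 CPM to 23.1, 33.7 and 57.2 CPM (difference 1.59, SE 0.21, adjusted p = 0.000534). Cyp2c69 had 0.195, 1.73 and 3.7 CPM in CON and 4.36, 6.46 and 14 CPM in MR (difference 2.21, SE 0.41, adjusted p = 0.00865). The 2c family genes are close copies, and their tags may not be fully separable. Cyp2d12 fell from 1.77, 3.21 and 4.8 CPM to 0.462, 0.66 and 1.2 CPM (difference -2.04, SE 0.29, adjusted p = 0.00124), with no overlap. Cyp2j6, an epoxygenase of arachidonic acid, had 92, 120 and 160 CPM in CON and 54.5, 58.8 and 93.7 CPM in MR (difference -0.94, SE 0.17, adjusted p = 0.00613). The groups overlapped only through MR3101. The 2 weaker decreases were Cyp2d40 (difference -0.79, SE 0.19, adjusted p = 0.0365) and Cyp2c70 (difference -0.54, SE 0.13, adjusted p = 0.0459). Both were lost in 9 of 12 fits without 1 library (0.052 to 0.0862 and 0.0526 to 0.098), Cyp2d40 being kept without CON3103, CON3107 or MR3102 and Cyp2c70 without CON3103, CON3107 or CON3114. Among 17 tested glucuronosyl- and sulfotransferases, 1 rose and 2 fell, and with library totals alone 2 rose and 1 fell. Ugt2b1 fell from 519, 704 and 863 CPM to 401, 466 and 501 CPM (difference -0.62, SE 0.12, adjusted p = 0.0106), and Sult1b1 from 5.68, 7.75 and 9.42 CPM to 3.23, 4.12 and 6.06 CPM (difference -0.85, SE 0.17, adjusted p = 0.0138). The Sult1b1 call was lost with library totals alone. Ugt2b36 differed by 0.43 (SE 0.10, adjusted p = 0.0351), kept only without CON3115 or MR3102 and lost in the other 10 fits (0.0552 to 0.0967).

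Bile acid genes gave 2 increases and 0 decreases among 28 tested, and 5 increases with library totals alone. Cyp39a1, an oxysterol hydroxylase of bile acid synthesis, had 24.6, 41.1 and 74 CPM in CON and 167, 192 and 216 CPM in MR. It rose 4.45-fold with a wide gap (difference 2.15, SE 0.22, adjusted p = 9.54e-05). Abcb11, the bile salt export pump, had 235, 282 and 342 CPM in CON and 365, 439 and 458 CPM in MR (difference 0.59, SE 0.11, adjusted p = 0.00829), also without overlap. Cyp7a1, the rate-limiting enzyme of the classic pathway, varied widely within both diets, at 5.99, 32.8 and 70 CPM in CON and 18.2, 42.2 and 85.9 CPM in MR (difference 0.53, SE 0.47, adjusted p = 0.66). Of 25 tested genes of cholesterol synthesis and uptake, 0 passed with edgeR. Insig2, which takes part in sterol sensing, had 159, 177 and 515 CPM in CON and 90.4, 120 and 147 CPM in MR (difference -1.03, SE 0.26, adjusted p = 0.0547). Every MR animal lay below every control, and Insig2 passed with DESeq2 (0.00553) and in edgeR fits without CON3103, CON3106 (0.0376) or CON3107. Of the 25, 8 had an unadjusted p under 0.05, and DESeq2 called 1 higher and 3 lower, and library totals alone gave 2 higher. Hsd17b7, a sterol synthesis enzyme, had the next smallest p (difference 0.38, SE 0.11, adjusted p = 0.0821).

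Fat synthesis genes fell. Of 30 listed genes of lipogenesis and triglyceride synthesis, 25 were tested, 7 fell and 0 rose, and their median difference was -0.42. With library totals alone 7 fell and the median was -0.24. Scd1, the desaturase that makes monounsaturated fatty acids, had 3150, 5480 and 6690 CPM in CON and 355, 1270 and 2430 CPM in MR. It was lower in every MR animal than in any control (difference -1.95, SE 0.35, adjusted p = 0.00648), at a ratio of 0.26. Thrsp, a thyroid hormone-responsive lipogenic protein, had 51, 113 and 148 CPM in CON and 13.8, 25.9 and 49.8 CPM in MR (difference -1.79, SE 0.29, adjusted p = 0.00349). Acss2, which makes acetyl-CoA from acetate, had 212, 275 and 313 CPM in CON and 107, 139 and 192 CPM in MR (difference -0.93, SE 0.14, adjusted p = 0.0014). Neither overlapped. Pklr, liver pyruvate kinase, had 97.3, 180 and 239 CPM in CON and 73.1, 83.3 and 102 CPM in MR (difference -1.07, SE 0.19, adjusted p = 0.00607), with only CON3107 within the MR range. It was the single call among 26 tested genes of glucose metabolism. Elovl5, an elongase of polyunsaturated fatty acids, had a median of 628 CPM in CON and 343 CPM in MR, with every MR animal (434 CPM or less) below every control (453 CPM or more) (difference -0.98, SE 0.21, adjusted p = 0.0217). The remaining calls were Acacb, the acetyl-CoA carboxylase at the mitochondrion (difference -1.17, SE 0.27, adjusted p = 0.0312), and Acly, ATP citrate lyase (difference -0.74, SE 0.17, adjusted p = 0.0348). Each was lost in 6 of 12 fits without 1 library, Acacb without CON3106, CON3107, CON3112, MR3102, MR3109 or MR3116 (0.0546 to 0.0706), and Acly without CON3106, MR3101, MR3104, MR3109, MR3113 or MR3116 (0.0558 to 0.0784).

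The core synthase and the lipogenic regulators did not pass. Fasn, fatty acid synthase, had 255, 400 and 580 CPM in CON and 243, 269 and 290 CPM in MR, where the controls were widely spread and CON3114 and CON3115 lay inside the MR range (difference -0.57, SE 0.16, adjusted p = 0.0935). Fasn passed without CON3115 (0.0238) and with DESeq2 (0.0285). Srebf1, which encodes SREBP-1, had 295, 359 and 628 CPM in CON and 231, 280 and 459 CPM in MR (difference -0.37, SE 0.19, adjusted p = 0.408). Mlxipl, which encodes ChREBP, differed by -0.04 (adjusted p = 0.932).

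**Figure D4:**
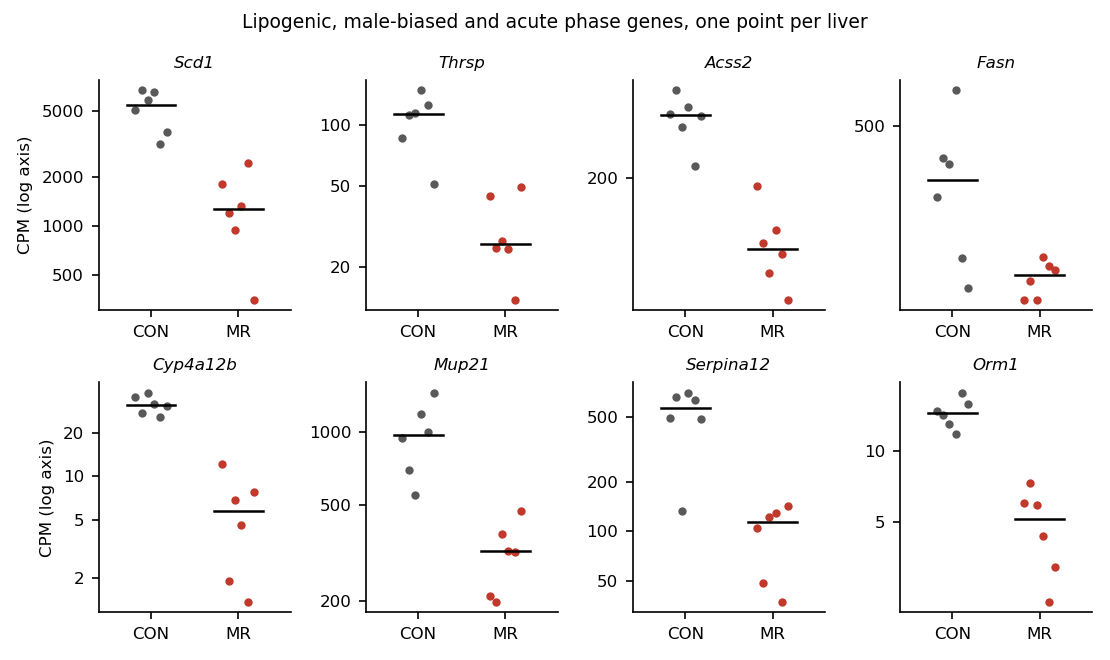
Levels of lipogenic (Scd1, Thrsp, Acss2, Fasn), male-biased (Cyp4a12b, Mup21, Serpina12) and acute phase (Orm1) genes, 1 point per animal and a bar at the group median, in CPM on log axes. All panels except Fasn show genes called lower in MR, and Fasn (255 to 580 CPM in CON, 243 to 290 CPM in MR) did not pass.

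Of 27 tested genes of mitochondrial beta-oxidation and ketone synthesis, 0 passed with edgeR or DESeq2 and 5 had an unadjusted p under 0.05, while edgeR with library totals alone called 2 higher. Ucp2, a mitochondrial carrier, and Crat, carnitine acetyltransferase, had the smallest p (differences 0.44, SE 0.16, and 0.56, SE 0.21, adjusted p = 0.202 and 0.219). Cpt1a, the gate to mitochondrial oxidation, differed by -0.13 (adjusted p = 0.828). Within the 29 tested peroxisomal and omega-hydroxylation genes, 1 rose and 2 fell, all of them Cyp4a hydroxylases. DESeq2 called 4 higher and 3 lower, and library totals alone gave 6 higher and 2 lower. Cyp4a14 had 10.6, 19.1 and 29.1 CPM in CON and 90, 136 and 188 CPM in MR, a 7.36-fold increase with no overlap (difference 2.88, SE 0.24, adjusted p = 1.32e-05). Cyp4a12b fell from 25.7, 30.7 and 37.5 CPM to 1.38, 5.79 and 12.2 CPM (difference -2.42, SE 0.37, adjusted p = 0.00191), and Cyp4a12a from 110, 142 and 170 CPM to 47, 76 and 105 CPM (difference -0.86, SE 0.17, adjusted p = 0.0123). The 2 Cyp4a12 genes are near-identical, so their separate counts are uncertain. Among 30 tested lipid droplet and PPAR target genes, 2 rose and 1 fell. Besides Fgf21, the one that rose was Acot1, an acyl-CoA thioesterase (0.846, 1.34 and 1.76 CPM in CON, 0.916, 3.61 and 5.49 CPM in MR, difference 1.39, SE 0.33, adjusted p = 0.0401). limma voom did not call it, and its edgeR call was kept only without MR3102 (0.00283) and lost in the other 11 fits (0.0555 to 0.0949). Fabp2, a fatty acid-binding protein, fell from 520, 605 and 770 CPM to 322, 360 and 394 CPM (difference -0.81, SE 0.12, adjusted p = 0.00135), and these groups did not overlap. Of 27 apolipoprotein and lipoprotein genes, Apoa4 was the only call, at 357, 482 and 1360 CPM in CON and 171, 229 and 285 CPM in MR (difference -1.46, SE 0.29, adjusted p = 0.0136). Apoa1, the main protein of HDL, had 13500, 17200 and 19400 CPM in CON and 10100, 14200 and 15500 CPM in MR (difference -0.29, SE 0.14, adjusted p = 0.359).

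Male-biased liver genes, which depend on the pulsed growth hormone pattern of males, were lower in MR. Of 36 listed, 27 were tested, 7 fell and 0 rose, with a median difference of -0.46 and 23 of 27 below 0. With library totals alone 5 fell and 1 rose, and the median was -0.26. Mup21, a major urinary protein, had 550, 974 and 1460 CPM in CON and 199, 322 and 471 CPM in MR (difference -1.62, SE 0.25, adjusted p = 0.00191), without overlap. Serpina12, which encodes vaspin, had 133, 560 and 698 CPM in CON and 37.2, 114 and 142 CPM in MR. It fell at a ratio of 0.189 (difference -2.40, SE 0.39, adjusted p = 0.00285), with only CON3107 inside the MR range. Nudt7, a peroxisomal CoA hydrolase (difference -0.52, SE 0.12, adjusted p = 0.031), and Selenbp2, a selenium-binding protein (difference -1.35, SE 0.33, adjusted p = 0.0459), were weaker. Nudt7 was lost in 7 of 12 fits without 1 library (0.0528 to 0.0682) and kept without CON3106, CON3107, CON3115, MR3104 or MR3116. Selenbp2 was lost with robust dispersion and in 9 of those fits (0.0626 to 0.107) and kept without CON3115, MR3101 or MR3116. The other 3 calls were Cyp4a12a, Cyp4a12b and Ugt2b1, described above. Mup genes are near-identical copies, so their separate counts are uncertain. Mup6 was called lower too (difference -1.06, SE 0.23, adjusted p = 0.0216), while the abundant Mup3 (difference -0.54, adjusted p = 0.325) and Mup11 (difference 0.69, adjusted p = 0.419) did not pass. Of 28 listed female-biased genes only 10 were abundant enough to test in these males, and 1 rose, Cyp2c69 (2 with library totals alone or DESeq2).

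The growth hormone axis itself gave 1 increase and 1 decrease among 20 tested genes. Igfbp2, an IGF-binding protein, had 209, 237 and 281 CPM in CON and 325, 395 and 503 CPM in MR (difference 0.74, SE 0.13, adjusted p = 0.00548). Ghr, the growth hormone receptor, had 663, 886 and 1120 CPM in CON and 508, 586 and 661 CPM in MR (difference -0.60, SE 0.12, adjusted p = 0.0135). Both were apart in all animals. Igf1, the main hepatic product of growth hormone, had 660, 1010 and 1350 CPM in CON and 582, 649 and 739 CPM in MR (difference -0.59, SE 0.15, adjusted p = 0.0572). The MR values were tightly grouped at the lower edge of the controls, and Igf1 passed without CON3112 or CON3115 (0.0127) and with DESeq2 (0.00805).

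Acute phase and complement genes gave 1 increase and 6 decreases among 29 tested, and 4 increases and 3 decreases with library totals alone. Leaving out 1 library gave between 2 and 6 decreases, with 2 without CON3106 and 3 without CON3107, MR3104, MR3109 or MR3113. The orosomucoids, plasma carriers made in inflammation, were lower: Orm1 had 11.8, 14.5 and 17.6 CPM in CON and 2.31, 5.15 and 7.32 CPM in MR (difference -1.57, SE 0.22, adjusted p = 0.00124). Orm3 was rare, with 0.975, 1.51 and 3.18 CPM in CON and 0.0923, 0.109 and 0.379 CPM in MR, a mean of 17.3 tags a library against 1.83 (difference -3.22, SE 0.43, adjusted p = 0.000712). It passed the expression filter in 8 of the 12 fits without 1 library. Neither gene overlapped, though the Orm copies share sequence. Serpina3k, an abundant serine protease inhibitor, had 6120, 8060 and 9590 CPM in CON and 2840, 4630 and 5460 CPM in MR (difference -0.81, SE 0.17, adjusted p = 0.0158). The Serpina3k call was lost with library totals alone. Saa1, serum amyloid A, had 1.87, 2.27 and 14.4 CPM in CON and 0.284, 0.81 and 2.14 CPM in MR (difference -2.59, SE 0.62, adjusted p = 0.0414). Its control spread came from CON3106 (14.4 CPM) and CON3107 (11.5 CPM), with the other 4 controls at 2.47 CPM or less. limma voom and robust dispersion did not call Saa1, and the edgeR call was kept without CON3103, CON3112, CON3114, CON3115 or MR3102 and lost in the other 7 fits (0.0799 to 0.0982). Lbp, the lipopolysaccharide-binding protein, was the increase, with 61.3, 79.4 and 136 CPM in CON and 102, 164 and 189 CPM in MR (difference 0.86, SE 0.19, adjusted p = 0.0273). The groups overlapped through CON3115, and the call was kept without CON3112, CON3115, MR3101 or MR3102 and lost in the other 8 fits (0.0534 to 0.0698).

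The last 2 decreases of that list were small. C9, the last protein of the complement attack complex, had 10.7, 11.9 and 13.3 CPM in CON and 5.72, 6.17 and 10.3 CPM in MR (difference -0.73, SE 0.17, adjusted p = 0.031). It was kept without CON3103, CON3112, CON3114, CON3115, MR3102 or MR3116 and lost in the other 6 fits (0.0528 to 0.076). Steap4, a metalloreductase, differed by -0.67 (SE 0.15, adjusted p = 0.0312), kept without CON3112, CON3114, CON3115, MR3101 or MR3102 and lost in the other 7 (0.0538 to 0.0722).

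Many of the largest named changes lay outside these lists. Of the 248 called genes 176 belonged to none of them. Most of the 10969 tested genes also lie outside the lists, so this count does not show where the calls were concentrated. Vil1, the microvillus protein villin, rose from 0.294, 1.08 and 1.34 CPM to 5.72, 7.67 and 9.03 CPM (difference 2.91, SE 0.24, adjusted p = 1.32e-05). Dnaic1, a dynein chain of cilia, rose from 0.376, 1.21 and 1.64 CPM to 4.06, 4.76 and 7.43 CPM (difference 2.31, SE 0.30, adjusted p = 0.000482). Htatip2, an oxidoreductase, had 31.5, 42.5 and 63.8 CPM in CON and 99.2, 113 and 159 CPM in MR (difference 1.44, SE 0.16, adjusted p = 0.000214). All 3 were apart in every animal. Rad51l1, a DNA repair gene, Pcp4l1 and Epb4.1l1, a membrane skeleton gene, rose by 1.86, 1.83 and 1.85 (SE 0.32, 0.35 and 0.35, adjusted p = 0.00463, 0.00998 and 0.0105), from control medians of 1.03, 2.09 and 1.41 CPM. Of these only Epb4.1l1 overlapped, through MR3116 at 1.5 CPM.

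Among the decreases, Cml3, an N-acetyltransferase-like gene, had 1.17, 5.24 and 8.78 CPM in CON and at most 0.346 CPM in MR, with 0 tags in 2 MR livers (difference -5.22, SE 0.58, adjusted p = 0.000182). Its MR mean was 1.33 tags a library, so the size of the fall is poorly fixed. Dct, dopachrome tautomerase, had 6.44, 13.4 and 20.7 CPM in CON and 0.462, 1.07 and 2.27 CPM in MR (difference -3.62, SE 0.38, adjusted p = 0.000116). Aqp4, a water channel, had 13.1, 17 and 38.7 CPM in CON and 1.2, 3.67 and 4.92 CPM in MR (difference -2.64, SE 0.33, adjusted p = 0.000407). The MR livers were below every control for these 3 genes. Scara5, a ferritin-binding scavenger receptor, had 2.44, 5.52 and 13.8 CPM in CON and 0.115, 0.296 and 1.88 CPM in MR (difference -3.36, SE 0.58, adjusted p = 0.00517). Treh, trehalase, had 1.44, 2.58 and 4.78 CPM in CON and 0.0, 0.198 and 0.758 CPM in MR (difference -3.19, SE 0.48, adjusted p = 0.00178). Chrna4, a nicotinic receptor subunit, and Dntt, a DNA polymerase of lymphocytes, differed by -4.24 and -2.53 (SE 0.63 and 0.36, adjusted p = 0.00157 and 0.00126). Gpc1, a heparan sulfate proteoglycan, differed by -2.41 (SE 0.47, adjusted p = 0.011) and Lrtm1 by -2.27 (SE 0.45, adjusted p = 0.013). The animals stayed apart for all of these except that the highest MR and the lowest CON value of Gpc1 met at 4.13 CPM.

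Hspb1, a small heat shock protein, had 10.6, 11.3 and 16.8 CPM in CON and 16.5, 28.7 and 31.3 CPM in MR (difference 1.12, SE 0.16, adjusted p = 0.00138), the only call among 14 tested heat shock and metallothionein genes (3 higher with library totals alone). Its MR animals were above all controls except MR3102. Gadd45b, a growth arrest gene, was the only call among 19 tested cell cycle genes, at 0.308, 0.67 and 0.975 CPM in CON and 0.808, 1.88 and 4.15 CPM in MR (difference 1.72, SE 0.40, adjusted p = 0.0351). limma voom did not call it. It passed the expression filter in 10 of the 12 fits without 1 library and lost its call without CON3103, CON3106, CON3112, CON3114 or MR3102 (0.0563 to 0.0839). Of 42 tested genes of the urea cycle and amino acid breakdown, 2 fell and 0 rose, 4.76% called against 2.26% of all genes. In this list 17 had an unadjusted p under 0.05, against 1594 of all 10969 genes. Haao, of tryptophan breakdown, differed by -0.51 (SE 0.12, adjusted p = 0.0397) and Agxt2, an aminotransferase, by -0.49 (SE 0.12, adjusted p = 0.0444). Haao was kept without CON3106, CON3114, CON3115 or MR3113 and lost in the other 8 fits (0.0669 to 0.0833). Agxt2 was kept without CON3115 or MR3102 and lost in the other 10 (0.0595 to 0.105), and both were lost with library totals alone. DESeq2 called 7 genes of this list lower, and edgeR with library totals alone called 0.

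Oxidative phosphorylation and the circadian clock gave 0 calls with edgeR. Of 47 tested respiratory chain genes 5 had an unadjusted p under 0.05, a smaller share than the 1594 of all 10969 genes. Sdha and Cox6c had the smallest p (differences -0.38, SE 0.11, and -0.37, SE 0.12, adjusted p = 0.11 and 0.146). DESeq2 called both (0.0311 and 0.0435). Of 17 tested clock genes 6 had an unadjusted p under 0.05, and DESeq2 called 1 lower. Nr1d1, a nuclear receptor of the clock, came nearest, at 37.7, 48.5 and 66.6 CPM in CON and 23, 33.6 and 39 CPM in MR (difference -0.61, SE 0.16, adjusted p = 0.0545). Nr1d1 passed without CON3112 or CON3115 (0.0294). The labels do not state the time of day of tissue collection.

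Markers of other cell types gave 1 call in all. The lists were short and 2.26% of all genes were called, so few or no calls in a list is near that share. Over all genes, 1594 of 10969 had an unadjusted p under 0.05. Of 17 tested Kupffer cell and macrophage markers 0 passed with edgeR or DESeq2 (1 at an unadjusted p under 0.05), and their summed level was 645 to 879 CPM in CON and 684 to 1500 CPM in MR. The upper end came from MR3102, which held 330 CPM of the macrophage receptor Marco against at most 22.7 CPM elsewhere, and 145 CPM of Emr1 against at most 37.5 CPM. Stellate cell, endothelial, cholangiocyte, lymphocyte and neutrophil lists gave 0 calls among 16, 15, 9, 7 and 3 tested markers with edgeR, where 2, 1, 2, 1 and 0 had an unadjusted p under 0.05 and DESeq2 called 1 cholangiocyte marker lower. Erythroid markers summed to 81.7 to 134 CPM in CON and 49.7 to 101 CPM in MR, with 0 of 4 tested passing (2 at an unadjusted p under 0.05, 1 called lower by DESeq2) and Hbb-b1 at 0 tags in all 12 libraries. Alas2 was nearest (difference -0.70, SE 0.18, adjusted p = 0.0521), and it passed without CON3106 (0.0259) or MR3116. Alas2 also passed in 6 of 11 other settings, namely DESeq2, RLE factors, upper-quartile factors, robust dispersion and both limma fits to the authors' normalized values. Of 18 exocrine pancreas markers 8 were at 0 in all libraries and 2 were tested. Cela1, an elastase gene, had 31.4, 62.3 and 79.3 CPM in CON and 19.3, 28.2 and 35.8 CPM in MR (difference -1.09, SE 0.21, adjusted p = 0.0103). The pancreas sum, 33.2 to 80.7 CPM in CON and 20.5 to 37.3 CPM in MR, was nearly all Cela1. Adipocyte and skeletal muscle lists gave 0 calls among 6 and 7 tested markers with edgeR or DESeq2 (2 and 0 at an unadjusted p under 0.05). Skeletal muscle markers summed to 970 CPM in CON3114 and 1540 CPM in MR3104 as the group maxima, against medians of 51.4 and 45.4 CPM. The fit without MR3104 gave 84 higher and 95 lower genes, and the fit without CON3114 gave 76 and 108. The part of these cells in the diet effects was not tested.

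Zonal hepatocyte markers gave 4 calls, 12.5% of each of the 2 lists against 2.26% of all genes. An unadjusted p under 0.05 was found for 6 of 16 pericentral and 8 of 16 periportal markers, against 1594 of all 10969 genes. Of 16 tested pericentral markers 2 fell: Rgn, regucalcin, from 630, 779 and 852 CPM to 480, 541 and 569 CPM (difference -0.51, SE 0.10, adjusted p = 0.0123), and Rhbg, an ammonium transporter (difference -1.30, SE 0.30, adjusted p = 0.0358). Both were lost with library totals alone, and Rhbg was kept without CON3103, CON3112, CON3115 or MR3101 and lost in the other 8 fits (0.0649 to 0.0879). Of 16 tested periportal markers Igfbp2 rose and Aldh1b1 fell. Aldh1b1, a mitochondrial aldehyde dehydrogenase, had 14.5, 19.1 and 47 CPM in CON and 6.3, 7.54 and 11.5 CPM in MR (difference -1.44, SE 0.27, adjusted p = 0.00829). The 12 general hepatocyte markers gave 0 calls with edgeR or DESeq2 (1 at an unadjusted p under 0.05).

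To ask which of these effects differed from the rest of the body, all 47 libraries were fitted together and the diet effect in liver was compared with the mean diet effect of brown fat (BAT), inguinal fat (IWAT) and gastrocnemius muscle. Of 13541 genes, 18 differed (0.133%), 13 with a higher and 5 with a lower effect in liver, and 601 had an unadjusted p under 0.05. Of the 248 liver calls 17 differed (6.85%), in each case in the direction of the liver effect. The calls were chosen by the diet effect in these same liver libraries, which is 1 side of this comparison. Their higher share and their shared direction therefore follow in part from that choice and are not further support. Tissues of 1 animal share that animal. With the animal as a replicate block 11 genes were higher and 4 lower, and none of the 8 genes named by the smallest p lost its call.

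Among stress response genes, Asns had a diet effect of 3.36 in liver, 0.25 in BAT, 0.35 in IWAT and 0.30 in gastrocnemius (difference 3.06, SE 0.45, adjusted p = 0.00014), and liver differed from each of the 3 tissues taken alone. Aldh1l2 had 3.14 in liver, -0.54 in BAT, -2.37 in IWAT and 0.72 in gastrocnemius (difference 3.87, SE 0.68, adjusted p = 0.00153). Taken alone, liver differed from IWAT (0.000196) and did not pass against BAT (0.131) or gastrocnemius (0.554). Psat1 had 2.97 in liver and between -0.63 and 0.02 elsewhere (difference 3.34, SE 0.59, adjusted p = 0.0019). The other called stress response genes did not pass in this comparison. The adjusted p was 0.0519 for Vldlr, 0.958 for Gdf15, 0.988 for Aldh18a1, and 1.0 for Fgf21 and Slc7a5. Cyp39a1 had 2.14 in liver, -0.43 in BAT, -0.26 in IWAT and 0.53 in gastrocnemius (difference 2.19, SE 0.34, adjusted p = 0.000315). Htatip2 had 1.42 in liver and between -0.38 and -0.08 elsewhere (difference 1.69, SE 0.28, adjusted p = 0.000718), and Epb4.1l1 1.84 in liver and between -1.03 and -0.06 elsewhere (difference 2.35, SE 0.41, adjusted p = 0.00153). Lbp had estimates of opposite sign, with 0.84 in liver, -1.58 in BAT, -2.80 in IWAT and -0.55 in gastrocnemius (difference 2.49, SE 0.34, adjusted p = 6.1e-05). Its rise in liver did not pass by itself in this joint edgeR fit (adjusted p = 0.643), so the difference does not rest on the liver rise alone. Taken alone, liver differed from BAT (adjusted p = 0.00133) and IWAT (5.41e-07) for Lbp and did not pass against gastrocnemius (0.55). Orm3 had -3.24 in liver, 1.46 in BAT, 1.42 in IWAT and -0.34 in gastrocnemius (difference -4.09, SE 0.66, adjusted p = 0.000648). Psat1, Cyp39a1, Epb4.1l1 and Orm3 passed against BAT and IWAT alone and did not pass against gastrocnemius (0.463, 0.544, 0.544 and 0.554), while Htatip2 and Scara5 passed against all 3 tissues. Scara5 had -3.37 in liver and between -0.59 and -0.34 elsewhere (difference -2.89, SE 0.50, adjusted p = 0.00153). The only differing gene that was not a liver call was Mfsd2a, a lysophosphatidylcholine transporter, with -1.52 in liver and 4.18 in BAT (difference -3.38, SE 0.70, adjusted p = 0.0174).

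**Figure D5:**
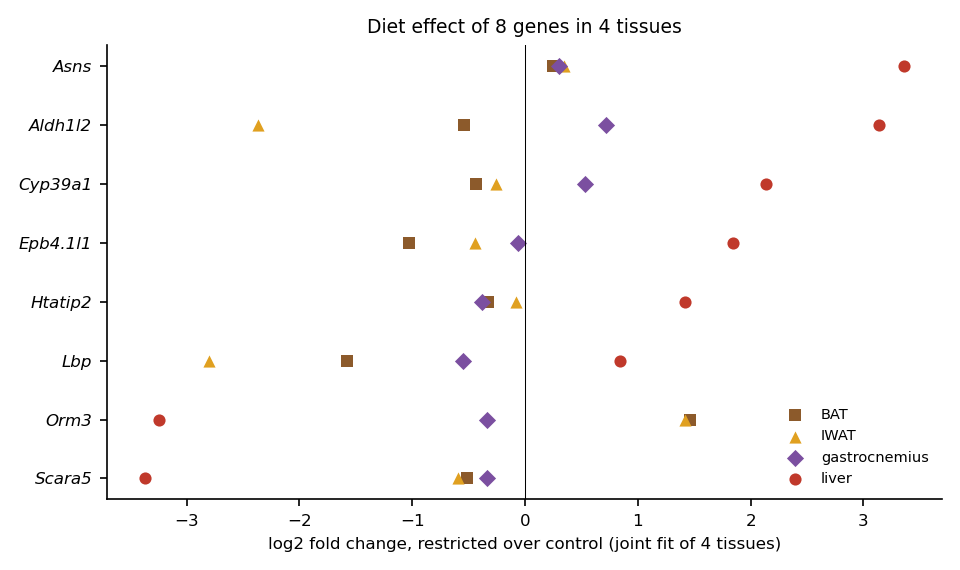
Log2 fold changes, MR over CON, of 8 genes in liver, BAT, IWAT and gastrocnemius from the joint fit of 47 libraries. Liver points lie to the right of the other tissues for 6 genes, including Asns (3.36 against 0.25 to 0.35), and to the left for Orm3 and Scara5.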

How the data were processed

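Per the labels' protocols, total RNA went into SOLiD SAGE 3′ tag libraries, and fragments mapping uniquely to mouse RefSeq genes were kept. No aligner is named in the sources used here, and the submitters' processing notes name the builds mm10 and GRCm38.p1. The authors deposited raw tag counts per gene symbol (whole numbers, 26608 symbols, not normalized) and, made with DESeq, a normalized signal. By its values this deposited signal is the raw count divided by 1 factor per library, for genes with at least 20 tags in all.

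Liver counts were fitted with edgeR 4.0.16 in R 4.3.3 (filterByExpr, TMM scaling, quasi-likelihood F test, Benjamini-Hochberg over all tested genes, threshold 0.05). Each SE was obtained by dividing the size of the log2 fold change by the root of its F statistic. The tissue comparison used the 26583 symbols shared by all 4 count tables, with 1 group per tissue and diet. Within liver the replicates are animals, so the p-values set the diet difference against the spread between animals. The main tissue comparison treated all 47 libraries as independent, without the animal in the model. Gastrocnemius had libraries from 11 animals, with none from MR3113. Same-numbered animals link the tissues, but deviations from group means correlated little within an animal (mean r -0.023 with BAT, 0.063 with IWAT, 0.034 with gastrocnemius). Alternatives used DESeq2 1.42.0, limma 3.58.1, other scalings and filters, and fits leaving out each library. The code was tested on simulated data.

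Genes were named by a rule: the 12 largest increases and 12 largest decreases (past the threshold, at least 20 mean tags in the higher group, every MR animal on 1 side of the control mean, clone names left out), list members past the threshold (up to 5 by smallest p, or 2 where none passed), a fixed set, and 8 genes of the tissue comparison. Aldh18a1, Osgin1, Txnrd1, Gsr, Acacb, Acly, Nudt7, Selenbp2, Steap4, Cyp2c70, Mup6, Psat1 in the tissue comparison, Mfsd2a and list members quoted with a difference and adjusted p alone lie outside it and were chosen after their values were seen. The comparison, rule and lists were chosen with earlier results of these data known. Gene names are the files' own; promoters are RefSeq GRCm38.p6, which held 169 of the 248 called genes by symbol. Tags shared by near-identical genes, as among Mup, Orm, Saa, Gst, Cyp and Ugt copies, may have been dropped or misassigned.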

Additional observations from a re-analysis of the deposited data

Results flagged for a closer look

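In 24 of 242 groups of 6 animals (9.92%) 1 liver lay far from the other 5 for a named gene. For normally distributed values chance would flag about 1 in 20 groups. The check used CPM without a log scale, and the genes come from the same animals, so these rates are not directly comparable. In MR3102 Marco (330 CPM), Emr1 (145 CPM) and the fibroblast gene Dcn (349 CPM) were high and Hspb1 (16.5 CPM) was low. In MR3101 Bhmt (5170 CPM), Cyp2j6 (93.7 CPM), Rhbg (3.98 CPM) and the lipid droplet gene Cidec (6.91 CPM) were high and Apoa1 (10100 CPM) was low. In MR3104 Tnni2 (109 CPM), Gpc1 (4.13 CPM) and Lrtm1 (6.09 CPM) were high, and in MR3113 Rad51l1 (7.48 CPM) and Yars (15.3 CPM).

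Among controls, CON3107 was high for Dntt (20.7 CPM), Gpc1 (22.3 CPM), Aldh1b1 (47 CPM), the endothelial gene Lyve1 (21.5 CPM) and Srebf1 (628 CPM). CON3114 was high for the muscle genes Actn3 (23.2 CPM) and Tnni2 (38.4 CPM), CON3103 for Cyp2c38 (17.8 CPM) and CON3106 for Insig2 (515 CPM), while CON3112 was low for Tpmt (16.6 CPM).

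The diet effect in liver differed from the mean of the other tissues, by a test of the difference itself, for Lbp (2.49), Asns (3.06), Cyp39a1 (2.19), Orm3 (-4.09), Htatip2 (1.69), Scara5 (-2.89), Aldh1l2 (3.87) and Epb4.1l1 (2.35).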

How the results depend on the processing

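The counts of 115 higher and 133 lower genes stayed within 1.5 times under limma voom, RLE or upper-quartile factors, no filter, a stricter filter, robust dispersion and limma on the authors' normalized signal. DESeq2 gave 191 higher and 285 lower genes, among them 247 of the 248 calls. Library totals alone gave 548 and 79, and the joint fit of 4 tissues, with 1 shared spread, gave 14 and 15; the cause of each was not tested. Leaving out each library gave 68 to 145 higher and 90 to 177 lower genes, with the fewest without MR3109 and the most without CON3115; without CON3103, CON3114 or MR3113 the higher genes fell to 75, 76 and 72. For the difference between liver and the other tissues, limma voom gave 20 higher and 25 lower genes against 13 and 5, and the animal as replicate block gave 11 and 4. That block ended none of the 8 named calls. Beside the joint fit, limma voom ended the calls of Saa1, Cyp2d40, Acot1, Gadd45b, Gdf15 and Cyp2c70, robust dispersion those of Saa1, Mgst3 and Selenbp2, RLE or upper-quartile factors that of Slc6a6, limma on the authors' signal plus 1 those of Saa1, Mgst3, Acot1, Gadd45b, Gdf15 and Cyp2c70 and plus 5 those of Saa1, Acot1, Gadd45b and Gdf15, no filter those of Slc6a6, Dnajb9, Gstm6, Ugt2b36, Haao, Agxt2, Hnmt, Txnrd1, Gsr and Cyp2c70, and library totals alone those of Gstm6, Cyp2d40, Sult1b1, Serpina3k, C9, Haao, Agxt2, Hnmt, Rgn, Rhbg, Cyp2c70, Selenbp2, Nudt7 and Steap4. Of the named called genes in these fits, which leave out Mup6, none changed direction. Without MR3102 the uncalled Marco difference went from 2.46 to -0.36, and without MR3104 that of Tnni2, a muscle gene, from 1.48 to -1.59. In the joint fit, list counts fell too, to 4 of 8 for stress response, 1 of 9 for NRF2, 1 of 7 for lipogenesis and 0 of 7 for male-biased genes. Genes under about 3 tags a library in 1 group, such as Cml3 and Orm3, are limited by depth.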
